A study of Homo sapiens with 6 samples.

Results

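The 10 genes described here encode enzymes that make serine, glycine, asparagine and proline and that carry one-carbon units on folate. They were taken by gene symbol from a fixed list: PHGDH, PSAT1, PSPH, SHMT1, SHMT2, MTHFD1, MTHFD1L, MTHFD2, ASNS and ALDH18A1. All 10 were found among the 26255 genes in the files, and all 10 passed the filter of at least 1 FPKM on average across the 6 samples, as did 12729 genes in total. The RNA came from 22RV1, an established human cell line of castration-resistant prostate cancer (CRPC), grown in RPMI 1640 with fetal bovine serum. Of the 6 samples, 3 received bruceantin (BCT), a plant quassinoid, at 10 nM for 24 h, and 3 received its solvent DMSO for the same time. The comparison asks how BCT changes the mRNA levels of these enzymes. The model is 1 cell line at 1 dose and 1 time, and the sources used here do not say whether the samples of a group were separate cultures, so the p-values measure only the spread between these samples. Because whole cultures were measured, less RNA per cell and fewer cells that express a gene cannot be told apart.

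As background, serine is made from the glycolytic intermediate 3-phosphoglycerate by PHGDH, PSAT1 and PSPH in turn. SHMT1 in the cytosol and SHMT2 in mitochondria convert serine to glycine and pass the released carbon to tetrahydrofolate. MTHFD2 and MTHFD1L carry that carbon towards formate inside mitochondria, and MTHFD1 uses formate in the cytosol, where the folate-bound carbon serves the synthesis of purines and thymidylate. ASNS makes asparagine from aspartate and glutamine, and ALDH18A1 starts the route from glutamate to proline. The transcription factor ATF4, made when amino acids are short or translation initiation is restrained, is a known activator of ASNS, PHGDH, PSAT1, SHMT2 and MTHFD2, and MYC is a known activator of several enzymes of serine and folate metabolism.

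Levels are given in FPKM, fragments scaled to transcript length and to the mapped reads of the sample, as the authors deposited them. Fold changes are BCT against DMSO on log2(FPKM + 0.1). They were tested with limma over all 12729 genes with Benjamini-Hochberg adjustment, and a gene is called lower or higher when it passes both a false discovery rate (FDR) of 0.05 and an absolute log2 fold change of 0.85. FPKM sums ran from 1169649 to 1572321 in the DMSO samples and from 757534 to 799838 in the BCT samples, and 1 small RNA gene, MIR6087, held 43.5% to 55.3% and 31.7% to 32.5% of them. Scaling samples to equal sums moved the median of all genes from -0.038 to 0.72, or to 0.34 with MIR6087 left out of the sum. Changes of these enzymes are for that reason also given relative to the median of all genes. FPKM holds no read counts, and the relative depth estimated from low values was 0.878 to 1 in DMSO samples and 1.05 to 1.13 in BCT samples. All 9 markers of prostate epithelium (among them FOLH1, KLK2, KLK3, HOXB13, TMPRSS2, KRT8, KRT18 and EPCAM) were detected in every sample, though KLK3 was under 1 FPKM in 2 BCT samples. Their fold changes were mixed, with a median of -0.45, KLK2, KLK3 and TMPRSS2 called lower and KRT8 and KRT18 called higher. The summed level of the list, 872.4 to 879.6 FPKM with DMSO and 1838 to 2013 FPKM with BCT, is carried by KRT8 (269.8 and 609.9 FPKM on average) and KRT18 (337 and 1109 FPKM). Of 6 markers of other cells, PTPRC, PECAM1, COL1A2 and DCN stayed below the filter, while COL1A1 and ACTA2 brought the summed level of the list from 5.07 to 6.06 FPKM with DMSO up to 18.3 to 21.0 FPKM with BCT, and their part in the results below was not tested.

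As a group, 9 of the 10 enzymes were lower and 1, ASNS, was higher in BCT-treated 22RV1 cells. Every BCT sample lay below every DMSO sample in those 9 genes and above every DMSO sample in ASNS. This separation is common in these data, since 44.3% of all tested genes had every BCT sample below and 41.0% every BCT sample above. All 9 lower genes and ASNS also passed the FDR, which 42.8% of all tested genes passed as lower and 39.3% as higher. With the fold change threshold added, SHMT1, MTHFD1 and ALDH18A1 were called lower and none was called higher, against a background of 17.8% called lower and 13.9% called higher. PHGDH and PSAT1 lay just short of the threshold, and without BCT replicate 1 they were called too, at -0.89 and -0.86, which made 5 of 10. Of all 12729 tested genes, 2488 were called lower without that sample, against 2263 with it. The median log2 fold change of the 10 enzymes was -0.72, against -0.038 over all tested genes. Relative to the median of all genes it was -0.69 as deposited and between -0.68 and -0.60 under the 4 other scalings, with 9 of the 10 genes below that median each time. Without that reference the direction of the weaker changes is tied to the scaling, as equal FPKM sums gave 5 genes above 0 and 5 below.

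**Figure D1:**
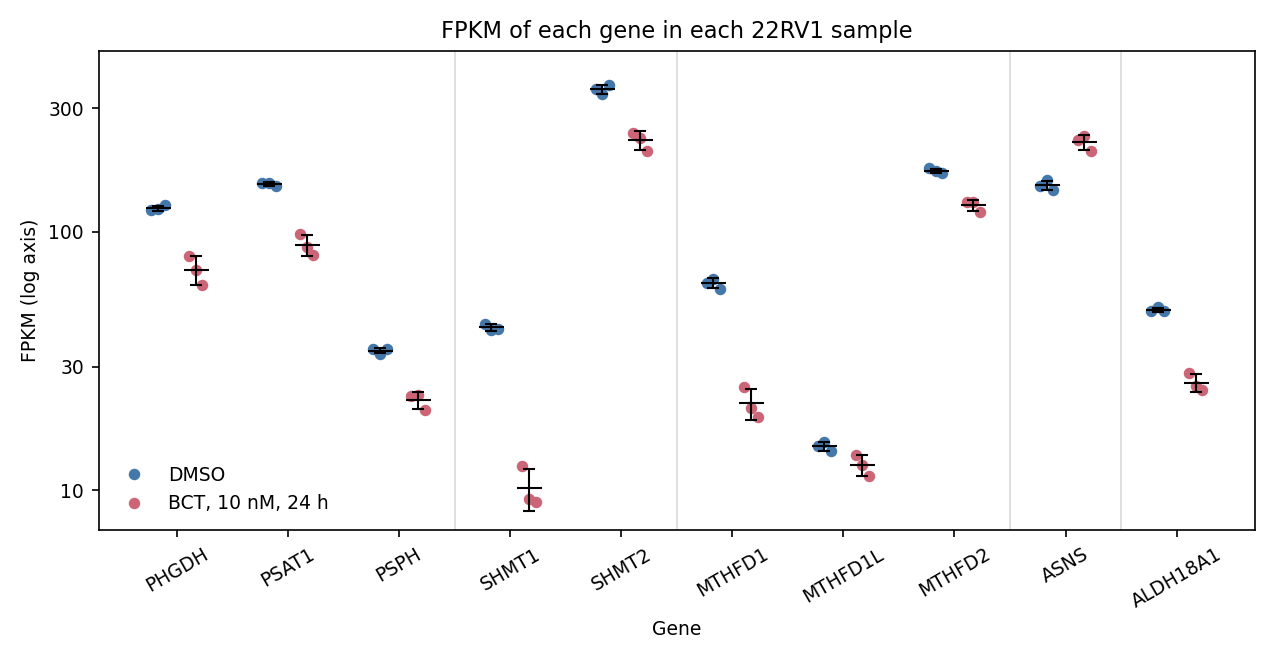
FPKM of the 10 enzymes (x axis) on a log axis, with 1 point per sample, and a bar with whiskers for the mean and SD of 3 samples per group. SHMT1 and MTHFD1 show the widest gaps between DMSO and BCT, ASNS alone is higher with BCT, and MTHFD1L has the narrowest gap.

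The 3 enzymes of serine synthesis were lower by similar amounts in the values as deposited. With equal FPKM sums they were at -0.031 (PHGDH), -0.020 (PSAT1) and 0.13 (PSPH) on the log2 scale, where the median of all genes was 0.72. PHGDH, which commits 3-phosphoglycerate to serine, lies on chromosome 1 from 120254419 to 120286849 on hg19. It was at 121, 122 and 126 FPKM in the DMSO samples and at 80.3, 71.0 and 62.0 FPKM in the BCT samples. The log2 fold change was -0.80 (standard error, SE, 0.087, limma adjusted p = 4.1e-05), which left 57.5% of the DMSO level. PSAT1, the aminotransferase of the second step, lies on chromosome 9 from 80911991 to 80945009. It was at 155, 154 and 150.1 FPKM in the DMSO samples and at 97.8, 87.0 and 81.4 FPKM in the BCT samples. Its change of -0.79 on the log2 scale (SE 0.069, limma adjusted p = 1.1e-05) was nearly that of PHGDH. PSPH, the phosphatase that releases serine, lies on chromosome 7 from 56078744 to 56119268 and was at 35.2, 33.7 and 34.985 FPKM with DMSO. With BCT it was at 23.2, 23.4 and 20.4 FPKM, and it differed by -0.63 on the log2 scale (SE 0.064, limma adjusted p = 2.5e-05). None of the 3 reached the fold change threshold, and in all of them the groups were apart. The DMSO samples agreed within a coefficient of variation of 1.59% to 2.32%, and the BCT samples within 7.45% to 12.9%.

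Within each sample, PSAT1 stood in a nearly fixed proportion to PHGDH. The ratio PSAT1/PHGDH was 1.27, 1.26 and 1.19 with DMSO and 1.22, 1.23 and 1.31 with BCT, so the groups overlapped and the mean log2 difference was 0.011. Leaving out 1 sample at a time moved this difference between -0.024 and 0.030. PSPH/PHGDH was 0.291, 0.277 and 0.278 with DMSO and 0.289, 0.330 and 0.330 with BCT. These groups overlapped as well, with a mean log2 difference of 0.16. A ratio of 2 genes within a sample does not depend on a scaling by 1 factor per sample, though quantile normalization can change it, as it brought PSPH (-0.60) and PHGDH (-0.62) together.

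The serine hydroxymethyltransferases differed most between the compartments. SHMT1, the cytosolic enzyme, is listed on chromosome 17 from 18218594 to 18266877, while its GENCODE gene runs from 18231174 to 18266877. SHMT1 was at 44.1, 41.7 and 41.9 FPKM with DMSO. With BCT it was at 12.4, 9.25 and 9.01 FPKM. It fell by 2.06 on the log2 scale (SE 0.11, limma adjusted p = 1.3e-06), the largest fall of the 10, and 2.40% of all tested genes had a fold change as low or lower. SHMT2, the mitochondrial enzyme, is listed on chromosome 12 from 57623356 to 57634475, while its GENCODE gene runs from 57623356 to 57628718. SHMT2 had the highest mean FPKM of the 10 genes with DMSO and with BCT. It was at 357, 339.9 and 368 FPKM in the DMSO samples and at 241, 230.4 and 205 FPKM in the BCT samples. Its log2 fold change was -0.66 (SE 0.069, limma adjusted p = 3.1e-05), and it turned to 0.11 with equal FPKM sums. The ratio SHMT2/SHMT1 was 8.08, 8.13 and 8.76 with DMSO and 19.3, 24.6 and 22.5 with BCT. The BCT samples lay above the DMSO samples without overlap, with a mean log2 difference of 1.41 (two-sided exact permutation p = 0.1, the smallest that 3 samples against 3 allow, and 0.14 after adjustment over 7 ratios). For none of the 7 ratios was the share of other gene pairs that separate the groups computed. Of single genes, 44.3% had every BCT sample below and 41.0% every BCT sample above, so a separation alone says little. The library kit does not mark strand, and both genes share their listed span with a neighbor on the other strand. SMCR8, next to SHMT1, was at 8.66 ± 0.351 FPKM with DMSO and 10.1 ± 0.374 FPKM with BCT (SD, n = 3 each), opposite in direction to SHMT1. NDUFA4L2, next to SHMT2, was called lower, from 25.0 ± 8.47 to 7.52 ± 1.20 FPKM (SD, n = 3 each), and reads of the overlapping ends cannot be told apart.

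The folate enzymes of the MTHFD family showed the same contrast between cytosol and mitochondria. MTHFD1, the cytosolic enzyme with 3 activities, fell by 1.55 on the log2 scale (SE 0.094, limma adjusted p = 1.9e-06). It was at 63.4, 65.6 and 60.2 FPKM in the DMSO samples and at 25.0, 20.7 and 19.2 FPKM in the BCT samples, or 34.2% of the DMSO level. MTHFD2, the mitochondrial dehydrogenase and cyclohydrolase, on chromosome 2 from 74425690 to 74442424, was at 176, 171 and 169 FPKM with DMSO. With BCT it was at 130.2, 129.8 and 119 FPKM, which differed by -0.45 on the log2 scale (SE 0.053, limma adjusted p = 6.5e-05). MTHFD1L, the mitochondrial enzyme that releases formate, on chromosome 6 from 151186815 to 151423023, had the smallest difference. It was at 14.8, 15.4 and 14.2 FPKM in the DMSO samples and at 13.7, 12.5 and 11.4 FPKM in the BCT samples, which differed by -0.24 on the log2 scale (SE 0.075, limma adjusted p = 0.016). MTHFD2 and MTHFD1L turned to 0.32 and 0.52 with equal sums, and MTHFD1L to 0.14 without MIR6087 in the sum, whereas MTHFD1 kept its direction under all 4 scalings but lost its call with equal sums (-0.78).

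Within samples, both mitochondrial enzymes gained on MTHFD1, and since the 2 ratios share MTHFD1, its fall counts in both. MTHFD2/MTHFD1 was 2.76, 2.61 and 2.81 with DMSO and 5.19, 6.23 and 6.17 with BCT, a mean log2 difference of 1.10. MTHFD1L/MTHFD1 was 0.234, 0.235 and 0.238 with DMSO and 0.550, 0.604 and 0.595 with BCT, a mean log2 difference of 1.31. In both ratios the groups did not overlap, and each gave the smallest two-sided exact permutation p of 0.1 (0.14 after adjustment over 7 ratios). The files list MTHFD1 on chromosome 14 from 64319683 to 65007086, a span of 687404 bases that 9 other genes of the files carry too, while the GENCODE gene spans 75427 bases from 64854749 to 64930175. The listed span is thus that of a merged locus and not of the gene. Among its coding neighbors, ZBTB25 was at 4.96 and 3.74 FPKM, SYNE2 at 2.66 and 1.82 FPKM and ZBTB1 at 11.0 and 12.6 FPKM, each as means with DMSO and BCT, and none of these was called. AKAP5, below the filter, was at 1.37 and 0.252 FPKM. How reads of the merged locus were divided among the genes is not given in the sources used here.

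**Figure D2:**
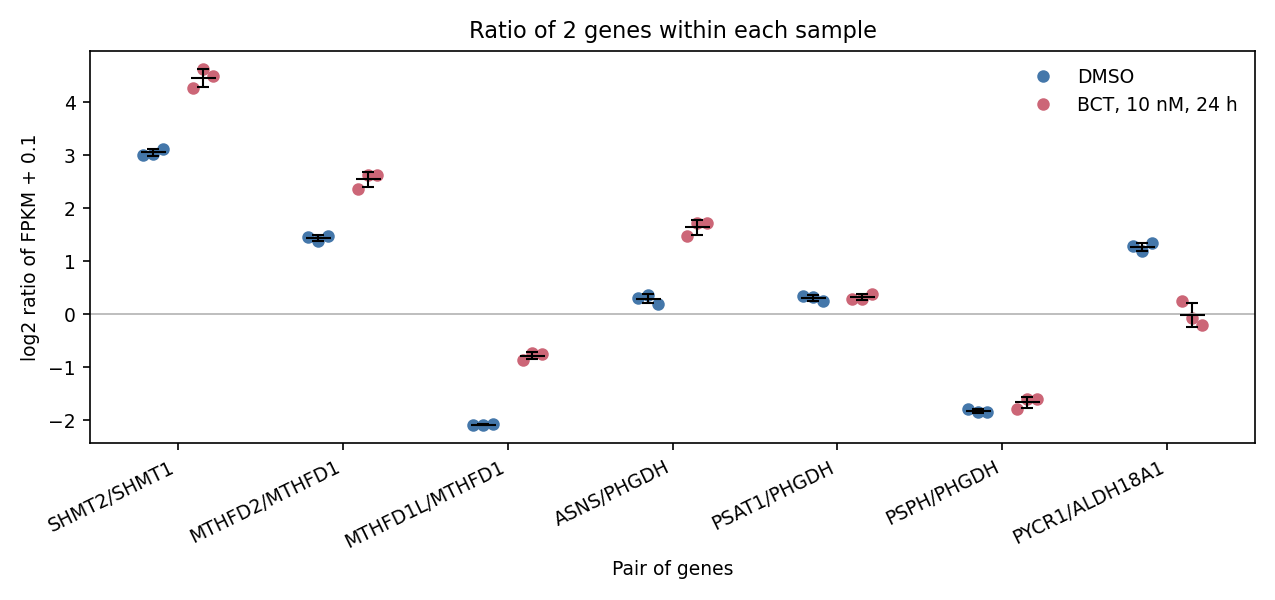
Log2 ratio of 2 genes (FPKM + 0.1) within each sample, with 1 point per sample and the mean and SD of 3 samples per group. The ratios of mitochondrial to cytosolic enzymes and ASNS/PHGDH are higher with BCT, PYCR1/ALDH18A1 is lower, and the groups overlap for PSAT1/PHGDH and PSPH/PHGDH.

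ASNS, asparagine synthetase, was the only one of the 10 with more mRNA in BCT-treated cells. It lies on chromosome 7 from 97481429 to 97501854 and was at 149.9, 158 and 145 FPKM with DMSO. With BCT it was at 225, 234 and 205 FPKM, so the lowest BCT sample stood well above the highest DMSO sample. The difference of 0.55 on the log2 scale (SE 0.063, 95% interval 0.41 to 0.70, limma adjusted p = 5.1e-05) is a 1.47-fold higher level and did not reach the threshold. It passed the threshold after equal sums (1.32), equal sums without MIR6087 (0.94) and quantile normalization (0.87). These settings called 5614, 3370 and 1903 of all 12729 tested genes higher, against 1764 as deposited. Relative to the median of all genes, ASNS was at 0.59 as deposited and at 0.60, 0.60 and 0.84 under these settings. The ratio ASNS/PHGDH was 1.23, 1.29 and 1.15 with DMSO and 2.80, 3.30 and 3.31 with BCT. The groups did not overlap, with a mean log2 difference of 1.35 (two-sided exact permutation p = 0.1, the smallest possible, and 0.14 after adjustment over 7 ratios). ASNS on the one hand and PHGDH, PSAT1 and PSPH on the other lay on opposite sides of the median of all genes under every scaling tested.

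ALDH18A1, which makes pyrroline-5-carboxylate from glutamate, lies on chromosome 10 from 97365686 to 97416567. It was at 49.1, 51.0 and 49.2 FPKM in the DMSO samples and at 28.3, 25.4 and 24.4 FPKM in the BCT samples. It fell by 0.93 on the log2 scale (SE 0.064, limma adjusted p = 3.1e-06), to 52.3% of the DMSO level. This is close to the threshold of 0.85, and the call was lost when the test was made against that threshold itself and with equal sums (-0.17, or -0.55 without MIR6087 in the sum). PYCR1, which reduces pyrroline-5-carboxylate to proline, fell further, from 120.7 ± 3.94 to 26.3 ± 6.47 FPKM (SD, n = 3 each). The ratio PYCR1/ALDH18A1 went from 2.45, 2.29 and 2.53 with DMSO to 1.18, 0.950 and 0.872 with BCT, a mean log2 difference of -1.29. The groups did not overlap in this ratio (two-sided exact permutation p = 0.1, and 0.14 after adjustment over 7 ratios).

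**Figure D3:**
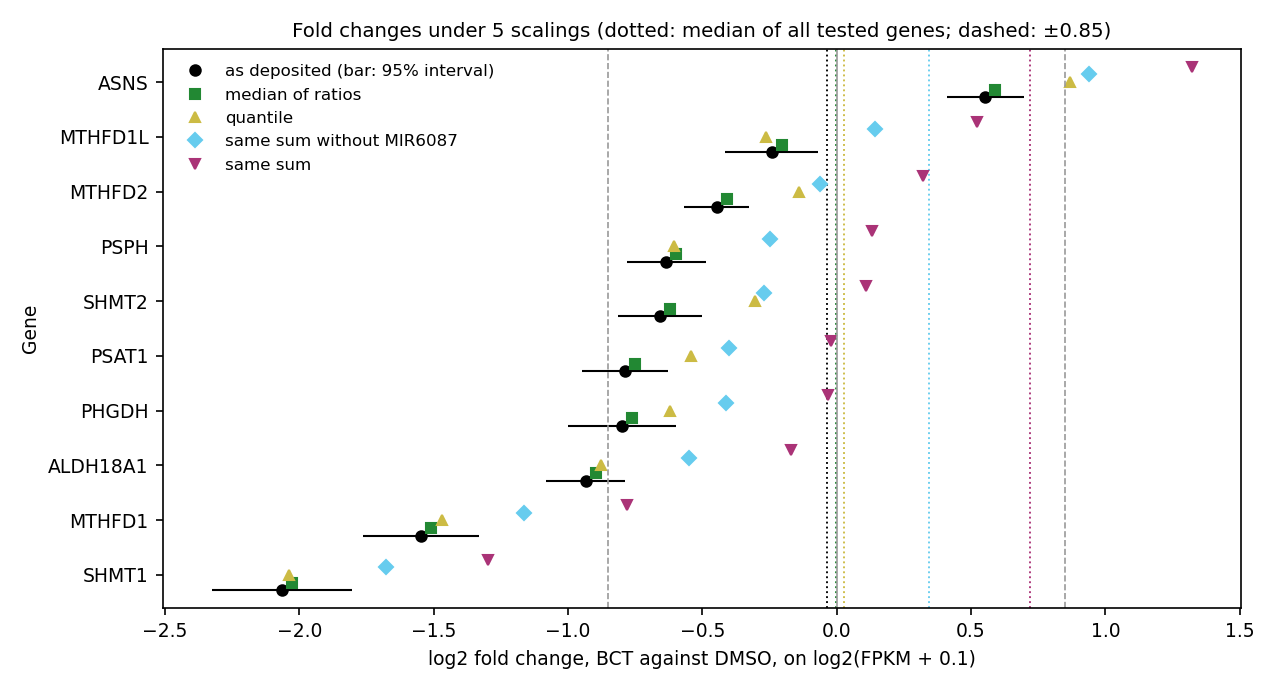
Log2 fold change of each enzyme (x axis, BCT against DMSO on log2(FPKM + 0.1)) as deposited with its 95% interval and under 4 other scalings, with dotted lines at the median of all genes under each scaling and dashed lines at the threshold of 0.85 in both directions. As deposited the genes run from SHMT1 at -2.06 to ASNS at 0.55, and ASNS alone lies above the dotted line of its scaling each time.

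The order of the levels changed accordingly. FPKM is scaled by transcript length, which allows a rough comparison of levels between genes. The places of MTHFD1, SHMT1 and SHMT2 are less certain. Their listed spans are shared with other genes, and how reads were divided is not given. With DMSO the order from high to low was SHMT2, MTHFD2, PSAT1, ASNS, PHGDH, MTHFD1, ALDH18A1, SHMT1, PSPH and MTHFD1L. Of the neighbors in this order, PSAT1 and ASNS overlapped in their samples. With BCT the order was SHMT2, ASNS, MTHFD2, PSAT1, PHGDH, ALDH18A1, PSPH, MTHFD1, MTHFD1L and SHMT1. Here SHMT2 and ASNS overlapped, at 205 to 241 and 205 to 234 FPKM, as did PSPH with MTHFD1 and MTHFD1L with SHMT1. ASNS thus stood next to SHMT2 at the top, and SHMT1 came to have the lowest mean. The BCT samples varied more than the DMSO samples in all 10 genes. BCT replicate 3 was the lowest BCT sample in all 10 genes, and BCT replicate 1 was the highest, and so nearest to DMSO, in 8 of the 9 lower genes.

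Promoter windows from RefSeq, 250 bases before to 50 bases after the gene start on GRCh38.p14, were found by symbol for 8 of the 10 genes and not for PSPH and SHMT2. They were searched for the letters TGATGNAA on both strands, which hold the ATF side of the element bound by C/EBP and ATF proteins, and for the E-box CACGTG, the element bound by MYC with MAX, which reads the same on both strands. TGATGNAA occurred in a window of 4.46% of 27305 genes and CACGTG in a window of 8.77%. Among the 8 genes, TGATGNAA occurred in ASNS and MTHFD1L and CACGTG in MTHFD1, MTHFD1L and ALDH18A1. The first base of the match lay at position -68 in ASNS, at -129 (TGATGNAA) and -154 (CACGTG) in the window of MTHFD1L shown, at -15 in MTHFD1 and at -136 in ALDH18A1, counted from the gene start. ASNS has 2 windows, of which 1 holds the match, and MTHFD1L has 4, of which 3 overlapping ones hold both. Counted from its other starts, the same letters lay at -90 and -115 or at 25 and -1, so that in 1 window TGATGNAA came after the start. A match is a description of the letters and not evidence of binding. SHMT1, PHGDH, PSAT1 and MTHFD2 held neither. The windows of the 4 genes with a match are shown so that the places of the letters can be compared, with the matches in capitals and each written 5' to 3' on the strand of the gene:
ASNS, chr7:97872359-97872658, minus strand: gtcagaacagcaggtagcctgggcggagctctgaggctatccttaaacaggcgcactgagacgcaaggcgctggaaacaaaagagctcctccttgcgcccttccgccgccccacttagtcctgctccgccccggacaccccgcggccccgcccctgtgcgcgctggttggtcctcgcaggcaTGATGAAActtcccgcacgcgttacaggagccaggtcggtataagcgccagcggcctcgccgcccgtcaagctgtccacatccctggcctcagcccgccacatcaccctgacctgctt
MTHFD1L, chr6:150866236-150866535, plus strand: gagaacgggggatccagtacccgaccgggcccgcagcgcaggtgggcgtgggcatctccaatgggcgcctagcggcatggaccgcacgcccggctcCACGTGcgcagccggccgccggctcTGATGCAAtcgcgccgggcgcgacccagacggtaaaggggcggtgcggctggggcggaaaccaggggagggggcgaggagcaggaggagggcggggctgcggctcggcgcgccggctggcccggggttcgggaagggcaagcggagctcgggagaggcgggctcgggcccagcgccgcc
MTHFD1, chr14:64388103-64388402, plus strand: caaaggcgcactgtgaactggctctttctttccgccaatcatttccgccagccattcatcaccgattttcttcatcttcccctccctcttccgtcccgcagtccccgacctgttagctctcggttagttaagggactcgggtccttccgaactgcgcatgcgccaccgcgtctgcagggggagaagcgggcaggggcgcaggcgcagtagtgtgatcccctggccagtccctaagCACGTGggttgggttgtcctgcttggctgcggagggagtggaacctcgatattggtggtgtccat
ALDH18A1, chr10:95656662-95656961, minus strand: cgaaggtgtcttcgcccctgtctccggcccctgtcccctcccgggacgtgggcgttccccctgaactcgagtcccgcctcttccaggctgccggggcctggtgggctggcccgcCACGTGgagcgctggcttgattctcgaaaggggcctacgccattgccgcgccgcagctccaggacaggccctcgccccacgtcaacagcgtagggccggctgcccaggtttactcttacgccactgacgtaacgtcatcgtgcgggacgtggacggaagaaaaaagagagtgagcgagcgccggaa

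Among regulators of amino acid metabolism, ATF4 mRNA rose from 528 ± 11.9 to 1721 ± 147 FPKM and DDIT3, a stress factor that acts with ATF4, from 76.0 ± 1.43 to 289 ± 28.7 FPKM (SD, n = 3 each). MYC fell from 122 ± 6.97 to 27.0 ± 3.90 FPKM. The list of 9 regulators had these 3 calls, 2 higher and 1 lower, and its median on the log2 scale was 0.70. These shares lie near the 13.9% and 17.8% of all genes, and the number called higher was 7 with equal sums and 5 without MIR6087 in the sum. Of all 12729 tested genes, those settings called 5614 and 3370 higher, against 1764 as deposited. CEBPG, CEBPB, EIF2AK3 and EIF2AK4 were higher without reaching the threshold, with log2 fold changes from 0.40 to 0.78. TRIB3, itself a known target of ATF4, was at -0.16, or -0.12 relative to the median of all genes. The sign of so small a value is tied to the scaling, as equal sums moved that median to 0.72.

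The wider pathways were read from 5 further lists with 65 genes, of which 53 passed the filter. Of these, 23 were called lower and 2 higher, and the median was -0.67 on the log2 scale, while 17.8% of all tested genes were called lower and 13.9% higher, with a median of -0.038. Equal FPKM sums gave 11 lower and 8 higher, and 15 were lower without MIR6087 in the sum. Of all 12729 tested genes, equal sums called 668 lower and 5614 higher, and 1208 were lower without MIR6087 in the sum. The glycine cleavage system, the mitochondrial complex that splits glycine and feeds its carbon to folate, was lower in all 4 subunits. GLDC, its decarboxylase, fell from 6.18 ± 0.375 to 0.686 ± 0.190 FPKM, and GCSH, the lipoyl carrier, from 79.4 ± 2.58 to 14.2 ± 2.60 FPKM (SD, n = 3 each). DLD, the dehydrogenase shared with other complexes, fell from 70.6 ± 3.64 to 32.4 ± 1.92 FPKM. AMT, the aminomethyltransferase, was at 1.64 ± 0.226 and 0.864 ± 0.162 FPKM, and its log2 fold change of -0.85 sat at the threshold and lost its call under all 4 other scalings and without 4 of the 6 samples in turn. The 9 tested genes of serine and glycine metabolism had 4 called lower, against 17.8% of all genes, and 1 called higher, a share near the 13.9% of all genes. Only 2 were called lower with equal sums, with or without MIR6087, since AMT and DLD then missed the threshold. DLD was at -0.35 with equal sums and at -0.74 without MIR6087 in the sum. The gene called higher was SDSL, a serine dehydratase-like gene, which rose from 32.7 ± 0.440 to 108 ± 9.59 FPKM. SFXN1, the mitochondrial serine carrier, was at -0.67 on the log2 scale.

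Among 15 other tested genes of folate metabolism, 5 were called lower, against 17.8% of all genes, and 1 higher, against 13.9%, with a median of -0.51. With equal sums 3 were called lower and 4 higher, beside 668 lower and 5614 higher of all 12729 tested genes. The 5 called lower as deposited included SLC19A1, the reduced folate carrier, at -2.56 and GGH, which trims folate polyglutamates, at -2.09. They also included TYMS, thymidylate synthase, at -1.47 and GART, an enzyme of purine synthesis that uses formyl folate, at -1.23. MTHFD2L, the mitochondrial paralog of MTHFD2, was low, at 3.45 ± 0.365 FPKM with DMSO, and higher with BCT at 4.77 ± 0.395 FPKM (log2 fold change 0.46, limma adjusted p = 0.0025), which did not reach the threshold. ATIC, a further user of formyl folate in purine synthesis, was at 69.7 ± 3.10 and 69.6 ± 1.70 FPKM, with overlapping groups.

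The methionine cycle and transsulfuration had 6 of 11 tested genes called lower, 0 called higher and a median of -0.90, against 17.8% and 13.9% of all genes. With equal sums 2 were called lower and 1 higher, beside 668 lower and 5614 higher of all 12729 tested genes. The largest falls were those of MAT1A at -2.96 and AHCY, which clears S-adenosylhomocysteine, at -1.70. CBS and CTH, the 2 enzymes from homocysteine to cysteine, followed at -1.50 and -1.49, and GNMT at -1.31. MAT1A, CTH and GNMT were low, with means of 4.05, 3.35 and 7.04 FPKM with DMSO and 0.443, 1.14 and 2.87 FPKM with BCT. A filter of at least 5 FPKM on average left these genes out, and 3 of the list were then called lower, beside 1577 of all 9319 genes tested. In the list of 7 proline and ornithine genes, 4 of 6 tested were called lower and 0 higher, against 17.8% and 13.9% of all genes, with a median of -1.61. ALDH4A1, which turns pyrroline-5-carboxylate back to glutamate, fell from 25.5 ± 0.188 to 3.94 ± 0.696 FPKM (SD, n = 3 each), and PRODH, which oxidizes proline, was at -1.59. Genes of both proline synthesis (PYCR1 at -2.22, PYCRL at -1.63) and proline breakdown were thus among the called. The 12 tested genes around aspartate and glutamate had 4 called lower, GLUD1, GLS2, GLUL and GPT, all within -0.998 to -0.88 and so near the threshold, and 0 called higher, against 17.8% and 13.9% of all genes. This list had 0 called lower after equal sums with or without MIR6087 and in the test against the threshold, and 2 after quantile normalization, without DMSO replicate 1 or without BCT replicate 2. Of all 12729 tested genes, equal sums called 668 lower with MIR6087 and 1208 without it, and the test against the threshold 1392. Quantile normalization called 2003 lower, and leaving out DMSO replicate 1 or BCT replicate 2 called 2239 or 2150.

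**Figure D4:**
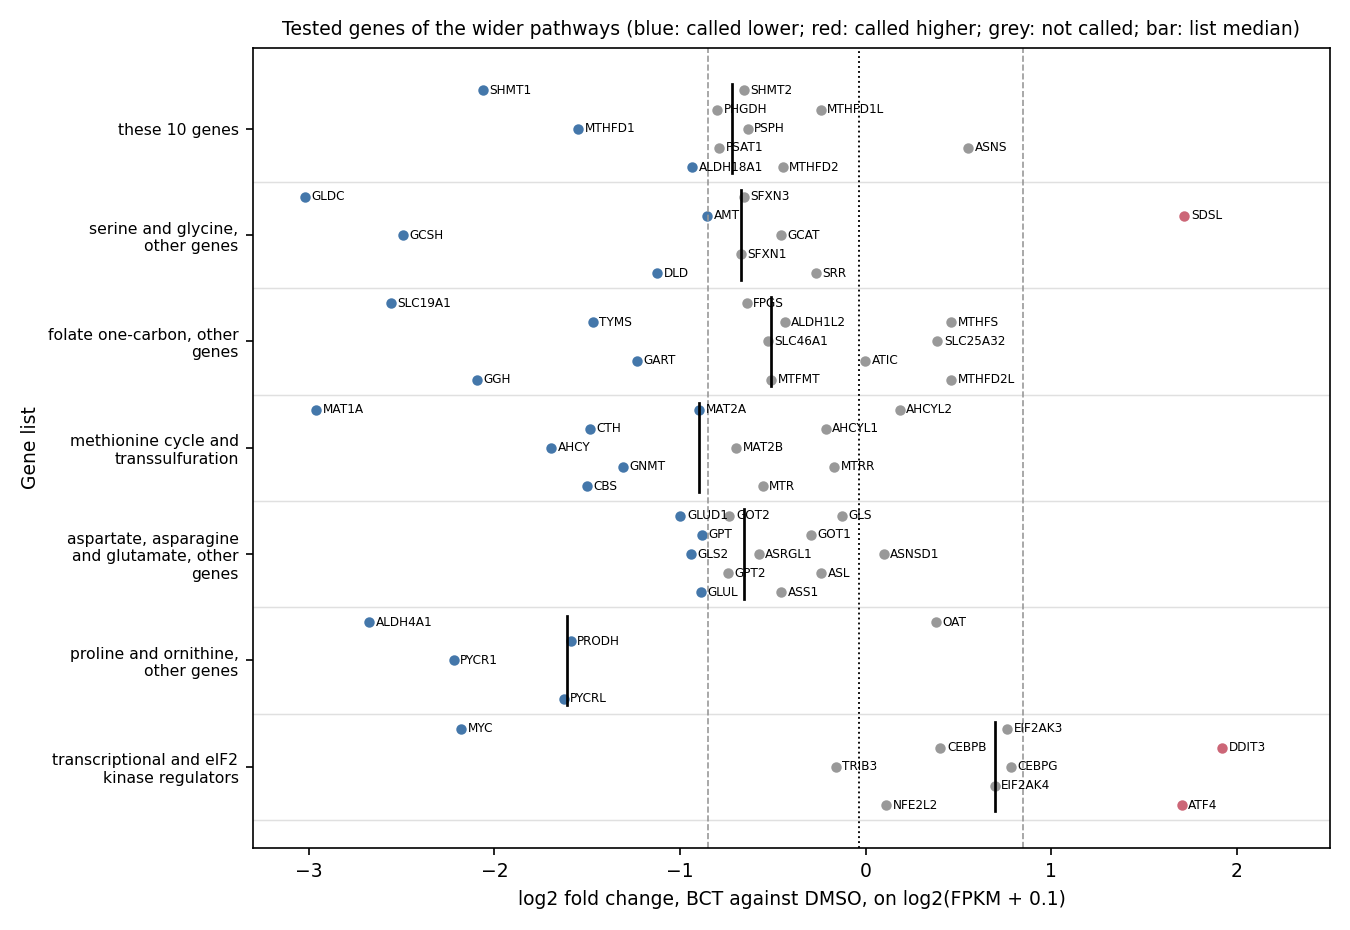
Log2 fold change (x axis, BCT against DMSO) of the 10 enzymes, of the tested genes of 5 related lists and of 9 regulators, with 1 point per gene (4 genes counted in the medians are not drawn), blue where called lower, red where called higher and grey otherwise. Black bars mark list medians, the dotted line the median of all genes at -0.038 and dashed lines the threshold of 0.85, and the medians of all metabolic lists lie left of the dotted line.

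The genes whose course over the 6 samples was nearest to ASNS, by the root mean square distance of log2(FPKM + 0.1) centered on the DMSO mean, were GSS, R3HDM1 and CELF6, at distances of 0.033 to 0.039. For SHMT1 they were GGCT, KCNH2 and POLD1, at 0.027 to 0.036. With 6 samples many genes lie this close, as 451 were within 0.1 of ASNS and 63 within 0.1 of SHMT1.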

How the data were processed

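RNA-seq was performed on 3 DMSO and 3 BCT samples of 22RV1 cells, grouped by their labelled agent. According to the study's methods, the authors trimmed reads with Trimmomatic (0.38 in the submitters' processing notes), used HISAT2 for alignment to hg19 and StringTie for assembly, and deposited an FPKM value for each gene. The notes also name CASAVA and HTSeq. The gene annotation and gene-level test are not given in the sources used here.

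From the deposited FPKM values, log2(FPKM + 0.1) of all 6 samples was tested with limma 3.58.1 (R 4.3.3, moderated with an intensity trend) for genes averaging at least 1 FPKM. The steps were tested on simulated data. Ratios within samples were compared by two-sided exact permutation tests. Depth was estimated from genes of 0.02 to 0.15 FPKM, and FPKM gives no counting error. Files list starts from 0, so 1 was added. GENCODE (release lifted to GRCh37) gave gene spans, and RefSeq the promoters. Alternatives covered pseudocount, filter, scaling, FDR, variance model, threshold test, replicate block and each sample left out.

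The genes and lists were chosen with earlier results of these data known. Named genes are the 10 enzymes, MTHFD2L and PYCR1, at most 5 called genes per list with the largest change, and 3 nearest patterns for the highest and lowest enzyme. Neighbors of merged loci and further genes given with values were named after their values were seen. Some genes counted in the lists are not reported here by name.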

Additional observations from a re-analysis of the deposited data

How the results depend on the processing

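The 10 enzymes had 190 results over 19 alternatives, of which 176 kept direction and side of the threshold, 4 became weaker, 5 stronger and 5 reversed. The alternatives of filter, FDR, variance model, threshold test and replicate block leave each fold change as it was, so direction could not reverse there. The 176 also include PHGDH (-0.031) and PSAT1 (-0.020) with equal sums, which shrank to near 0 but were never called in the first place. The reversals came from equal FPKM sums (PSPH 0.13, SHMT2 0.11, MTHFD2 0.32, MTHFD1L 0.52) and from equal sums without MIR6087 (MTHFD1L 0.14). The median of the 10 genes was 0.045 with equal sums, -0.34 without MIR6087 and -0.57 after quantile normalization, and these 3 settings called 1 gene higher, ASNS. Of all tested genes the same settings called 5614, 3370 and 1903 higher. Equal sums left 1 gene called lower, SHMT1. Leaving out single samples gave 3 to 5 called lower, the 5 without BCT replicate 1, and a median of -0.78 to -0.65. Over all tested genes it gave 2146 to 2488 called lower, the 2488 also without BCT replicate 1. ALDH18A1 lost its call with equal sums, without MIR6087 in the sum and in the test against the threshold, and MTHFD1 with equal sums (-0.78). The cause was not tested.

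Over all genes, 2263 were called lower and 1764 higher. The counts were 668 and 5614 with equal sums and 1208 and 3370 without MIR6087 in the sum. A test against the threshold gave 1392 and 1033, out of the same 12729 genes. At a mean of at least 5 FPKM the counts were 1577 lower and 1150 higher, out of only 9319 genes tested. The wider lists had 11 called lower and 8 higher with equal sums, and 15 lower without MIR6087. The difference of PSAT1/PHGDH changed sign with samples left out (-0.024 to 0.030).

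Deviations from the group means correlated at 0.12, 0.033 and 0.034 between same-numbered DMSO and BCT samples. Between samples of different numbers they correlated at -0.12 to 0.074, the highest for DMSO replicate 2 with BCT replicate 3. Deviations from a mean of 3 samples depend on each other, so such small correlations cannot show whether the numbers pair the samples. With the replicate block, 2266 genes were lower and 1767 higher, and the same number of enzymes, 3, was called lower.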
